A study of Mus musculus with 11 samples.

Results

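The 10 genes Cd3d, Cd3e, Cd3g, Cd247, Cd4, Cd8a, Cd8b1, Cd2, Cd5 and Cd6 encode the signalling chains of the T cell receptor complex, the T cell coreceptors and 3 surface proteins of T cells that tune the receptor. They were chosen by symbol, and all 10 were found among the 25677 genes listed for the kidneys. One kidney library was made from each of 11 female mice aged 21 weeks. Ctr held 3 healthy C57BL/6J animals (genotype label C57B6). Lpr held 4 animals of the MRL/lpr strain without treatment, and DNase held 4 of the same strain that were injected daily into the peritoneum with DNase I from week 17. MRL/lpr is an inbred strain that develops a lupus-like nephritis and carries the lpr mutation of Fas, a death receptor, so that both Lpr and DNase carry it. DNase I cuts extracellular DNA. Ctr and MRL/lpr animals differ both in their strain and in their disease, so strain and disease cannot be told apart in any comparison with Ctr.

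The T cell receptor has no signalling tail of its own. It is carried by the CD3 chains gamma (Cd3g), delta (Cd3d) and epsilon (Cd3e) and by the zeta chain (Cd247), whose tails are phosphorylated by the kinase Lck. CD4 and CD8 bind class II and class I MHC molecules and bring Lck to the receptor. CD8 on conventional cytotoxic T cells is a pair of an alpha chain (Cd8a) and a beta chain (Cd8b1), whereas alpha chains paired with each other occur on some innate-like T cells and on a class of dendritic cells, and Cd4 is also made by some dendritic cells. Mice with the lpr mutation are known for the accumulation of T cells that carry CD3 but neither CD4 nor CD8, so the amount of each coreceptor per CD3 was examined as well as its level.

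The 3 CD3 genes lie next to each other on chromosome 9 and rose together, so the sequences before their starts are shown with that of Cd8a, which rose as much, on the mm10 (GRCm38) build that the labels name. Cd3g and Cd3d start 1355 bp apart on opposite strands, and the 3 genes span 40.1 kb. Cd8b1 ends 35.9 kb before Cd8a on chromosome 6, where Cd4 also lies, and Cd5 and Cd6 lie 50.3 kb apart on chromosome 19, with Cd2 on chromosome 3 and Cd247 on chromosome 1. The 250 bases before each start, from RefSeq (GRCm38.p6), were available for 6 of the 10 genes. They are chr9:44980432-44980681 on the minus strand for Cd3g, chr9:44981536-44981785 on the plus strand for Cd3d, chr9:45009612-45009861 on the minus strand for Cd3e and chr6:71373177-71373426 on the plus strand for Cd8a. Each is written in the direction of its gene, and capitals mark exact matches on either strand to 7 short motifs: GGAAGT (ETS factors), TGTGGT (RUNX), CAGCTG and CACCTG (E boxes), AGATAA (a motif of the GATA family), CTTTGA (TCF/LEF) and TATAAA (a core promoter element).
Cd3g promoter: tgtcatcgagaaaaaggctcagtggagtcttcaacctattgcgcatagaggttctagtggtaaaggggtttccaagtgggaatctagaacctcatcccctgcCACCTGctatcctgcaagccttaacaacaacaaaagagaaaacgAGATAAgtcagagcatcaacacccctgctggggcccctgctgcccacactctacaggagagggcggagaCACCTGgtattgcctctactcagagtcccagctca
Cd3d promoter: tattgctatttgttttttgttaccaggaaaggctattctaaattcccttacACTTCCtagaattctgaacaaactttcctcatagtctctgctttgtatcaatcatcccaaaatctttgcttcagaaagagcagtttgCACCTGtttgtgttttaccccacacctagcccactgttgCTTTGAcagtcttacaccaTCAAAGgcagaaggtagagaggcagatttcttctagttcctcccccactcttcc
Cd3e promoter: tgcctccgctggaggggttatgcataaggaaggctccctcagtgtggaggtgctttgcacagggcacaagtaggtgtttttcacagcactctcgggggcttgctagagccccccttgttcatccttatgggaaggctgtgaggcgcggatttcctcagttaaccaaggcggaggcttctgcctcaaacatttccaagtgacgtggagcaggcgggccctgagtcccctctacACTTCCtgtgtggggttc
Cd8a promoter: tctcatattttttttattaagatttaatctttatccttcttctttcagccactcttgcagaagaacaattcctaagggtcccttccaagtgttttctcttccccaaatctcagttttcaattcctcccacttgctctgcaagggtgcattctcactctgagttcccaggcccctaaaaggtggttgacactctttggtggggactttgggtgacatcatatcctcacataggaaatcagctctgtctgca
The Cd3g sequence held 3 matches, with CACCTG at positions -148 and -35 and AGATAA at -104 from the start. The Cd3d sequence held 4, an ETS and an E box match and CTTTGA on each strand, and that of Cd3e held 1, an ETS match at -18. None of the 7 motifs was found in the Cd8a sequence. Over 32851 promoters of the same length, GGAAGT was found in 19.7%, TGTGGT in 14.0%, CAGCTG in 13.0%, CACCTG in 17.2%, AGATAA in 9.99%, CTTTGA in 13.8% and TATAAA in 12.4%, so single matches of this kind are common. No TATAAA was found in these 4 windows.

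The libraries held between 33469858 and 38460873 counted reads. Kidney genes were abundant in all 11, with Umod, the main protein of the thick ascending limb, at 112909 counts or more. In 1 library, Lpr replicate 3, log2 levels fell with gene length (slope -0.39 per doubling of the length, against -0.04 to 0.08 in the other 10), so the comparisons between genes of different length that change with this trend are also given with it removed. The counts come from total RNA of kidney tissue, in which more T cells and more RNA of these genes per T cell cannot be told apart.

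All 10 genes were higher in Lpr than in Ctr. Each passed the threshold of an adjusted p under 0.05 and a log2 fold change above 2 (edgeR's quasi-likelihood test, adjusted over all genes tested), which 4.65% of 16074 genes passed in this direction. In all 10 the lowest Lpr library lay above the highest Ctr library, which held for 14.5% of all genes tested. Their median log2 fold change was 4.10, against 0.03 for all genes, with a range from 2.49 for Cd8b1 to 5.12 for Cd6. The levels below are in FPKM, reads scaled to gene length and to the total of the library, and are listed by replicate number in the order Ctr, Lpr, DNase.

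**Figure D1:**
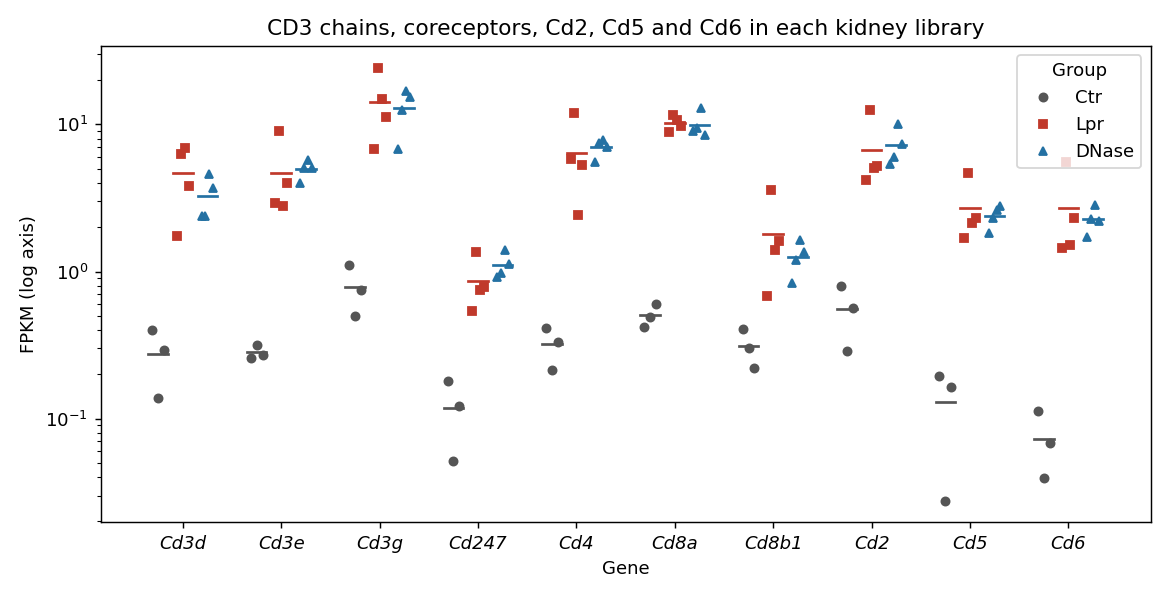
FPKM (log axis) of the 10 genes in each of the 11 kidney libraries, with a point per mouse and a bar at the mean of each group (Ctr, n = 3; Lpr, n = 4; DNase, n = 4). Every Lpr and DNase point lies above every Ctr point of the same gene, and the Lpr and DNase points overlap in all 10 genes.

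Among the CD3 chains, Cd3e (epsilon), which pairs with both gamma and delta, stood at 0.259, 0.315 and 0.272 FPKM in Ctr, at 2.92, 9.04, 2.78 and 4.02 in Lpr and at 3.98, 5.08, 5.72 and 5.04 in DNase. Its controls were the tightest of the 10 genes, and Lpr replicate 2 stood far above the other Lpr mice. The log2 fold change from Ctr to Lpr was 3.99 ± 0.51 (SE), with an adjusted p of 0.00191. Cd3d (delta) stood at 0.399, 0.138 and 0.293 FPKM in Ctr, at 1.75, 6.30, 6.94 and 3.84 in Lpr and at 2.38, 2.37, 4.58 and 3.70 in DNase. Its log2 fold change in Lpr was 4.05 ± 0.61 (SE), with an adjusted p of 0.00387. Lpr replicate 3, which was low for Cd3e, was the highest for Cd3d. Cd3g (gamma) had the highest level of the 10 genes in each group, at 1.10, 0.497 and 0.750 FPKM in Ctr, 6.78, 24.4, 14.9 and 11.2 in Lpr and 6.80, 12.5, 16.9 and 15.3 in DNase. It rose by 4.15 ± 0.51 (SE) on the log2 scale, with an adjusted p of 0.00171, so that the 3 chains rose 15.9- to 17.7-fold.

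The sum of the 3 chains, used below as the measure of CD3, was 1.34 ± 0.41 FPKM in Ctr (SD, n = 3), 23.7 ± 11.9 in Lpr (SD, n = 4) and 21.1 ± 6.06 in DNase (SD, n = 4). It rested on 40 to 81 counts in the Ctr libraries and on 503 to 1790 in the MRL/lpr libraries. Cd3g made up 52.3% to 62.6% of this sum in Ctr and 51.7% to 63.7% in the 8 MRL/lpr libraries. The share of Cd3e was 11.3% in Lpr replicate 3 and 21.0% to 30.2% in the other MRL/lpr libraries.

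Cd247 (zeta), the chain with the most signalling motifs, stood at 0.181, 0.0514 and 0.123 FPKM in Ctr, at 0.536, 1.35, 0.749 and 0.790 in Lpr and at 0.912, 0.981, 1.40 and 1.13 in DNase. Its log2 fold change in Lpr, 2.81 ± 0.49 (SE, adjusted p = 0.00738), was the smallest of the receptor chains. The length behind its FPKM was 6969 bp, while its longest coding transcript in GENCODE vM21 measured 2957 bp, so its FPKM may be understated against the CD3 chains, and only its change between groups is read here. Relative to the CD3 sum, Cd247 stood at 0.0542 to 0.103 in Ctr and at 0.0305 to 0.0693 in MRL/lpr, ranges that overlap. The lowest value was that of Lpr replicate 3, which became 0.0672 with the length trend removed, when the ranges still overlapped.

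Of the coreceptors, Cd4 stood at 0.416, 0.215 and 0.332 FPKM in Ctr, at 5.82, 11.9, 2.42 and 5.34 in Lpr and at 5.58, 7.50, 7.89 and 7.01 in DNase. The Lpr mice spanned 4.92-fold and the DNase mice 1.42-fold. The log2 fold change in Lpr was 4.25 ± 0.55 (SE), with an adjusted p of 0.00195. Cd8a stood at 0.419, 0.487 and 0.603 FPKM in Ctr, at 8.84, 11.6, 10.7 and 9.76 in Lpr and at 8.99, 9.46, 13.0 and 8.51 in DNase. It was the most even of the 10 genes in the Lpr mice, with a span of 1.31-fold, and had the smallest adjusted p of them, 0.000152, at a log2 fold change of 4.31 ± 0.23 (SE). Cd8b1, its partner chain, stood at 0.407, 0.303 and 0.219 FPKM in Ctr, at 0.677, 3.56, 1.41 and 1.60 in Lpr and at 0.835, 1.20, 1.64 and 1.35 in DNase. It rose the least, 5.61-fold in Lpr against 19.8-fold for Cd8a. Its log2 fold change was 2.49 ± 0.58 (SE), with an adjusted p of 0.0293. That call was lost without any 1 of the Ctr libraries (adjusted p from 0.0876 to 0.122) and without Lpr replicate 2, where the log2 fold change fell to 1.94.

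Cd2, an adhesion receptor that binds CD48 on other leukocytes, stood at 0.803, 0.287 and 0.567 FPKM in Ctr, at 4.19, 12.4, 5.05 and 5.22 in Lpr and at 5.35, 6.03, 10.1 and 7.39 in DNase. It rose 11.7-fold in Lpr (log2 fold change 3.55 ± 0.52, SE, adjusted p = 0.00359). Cd5, an inhibitory receptor set by the strength of receptor signalling, stood at 0.195, 0.0277 and 0.164 FPKM in Ctr, at 1.68, 4.68, 2.15 and 2.30 in Lpr and at 1.83, 2.32, 2.63 and 2.80 in DNase. The lowest control rested on 2 counts. Its log2 fold change in Lpr was 4.32 ± 0.63 (SE), with an adjusted p of 0.00337. Cd6, a relative of Cd5 that binds ALCAM and CDCP1, stood at 0.112, 0.0393 and 0.0679 FPKM in Ctr, at 1.44, 5.53, 1.52 and 2.32 in Lpr and at 1.72, 2.29, 2.84 and 2.19 in DNase. It had the largest change of the 10 genes, 34.8-fold (95% confidence interval 12.4 to 98.0, adjusted p = 0.00191), from 4 to 13 counts per Ctr library; without Lpr replicate 2 the log2 change of 5.12 became 4.52. Relative to the CD3 sum, Cd6 stood at 0.0414 to 0.0637 in Ctr, at 0.0620 in Lpr replicate 3 and at 0.0911 to 0.139 in the other 7 MRL/lpr libraries, so the overlap with Ctr rested on that library. With the length trend removed, Cd6 per CD3 was 0.0392 to 0.0611 in Ctr and 0.0916 to 0.132 in all 8 MRL/lpr libraries, without overlap. Cd2 per CD3 (0.302 to 0.456 in Ctr, 0.205 to 0.407 in MRL/lpr) and Cd5 per CD3 (0.0292 to 0.125 in Ctr, 0.0874 to 0.147 in MRL/lpr) overlapped with and without the correction. These ratios are given without a test, and their correction was added after the values were seen.

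In the order of mean levels Cd3g came first in all 3 groups, and Cd8a ranked 3 in Ctr and 2 in Lpr and DNase. Cd8b1 ranked 5 in Ctr (4 with the length trend removed) and 9 in both MRL/lpr groups (9 with the trend removed as well). Most neighbours in these orders overlapped over the libraries; the exceptions were Cd8a above Cd4 in Ctr and Cd6 above Cd8b1 in DNase.

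In DNase kidneys too, all 10 were higher in DNase than in Ctr at an adjusted p of 0.00377 or less, and 9 passed the fold threshold as well, against 4.56% of 16100 genes tested. In all 10 the DNase and Ctr libraries were apart, against 18.1% of all genes. The log2 fold changes ran from 3.12 ± 0.36 (SE) for Cd247 to 4.82 ± 0.34 (SE) for Cd6 in the 9 called genes. Cd8b1, the gene not called, changed by 1.92 ± 0.35 (SE) on the log2 scale with an adjusted p of 0.00377, and it passed the fold threshold without Ctr replicate 1 (2.15) and without DNase replicate 1 (2.07). Both MRL/lpr groups were set against the same 3 controls, so these 2 comparisons are not independent.

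**Figure D2:**
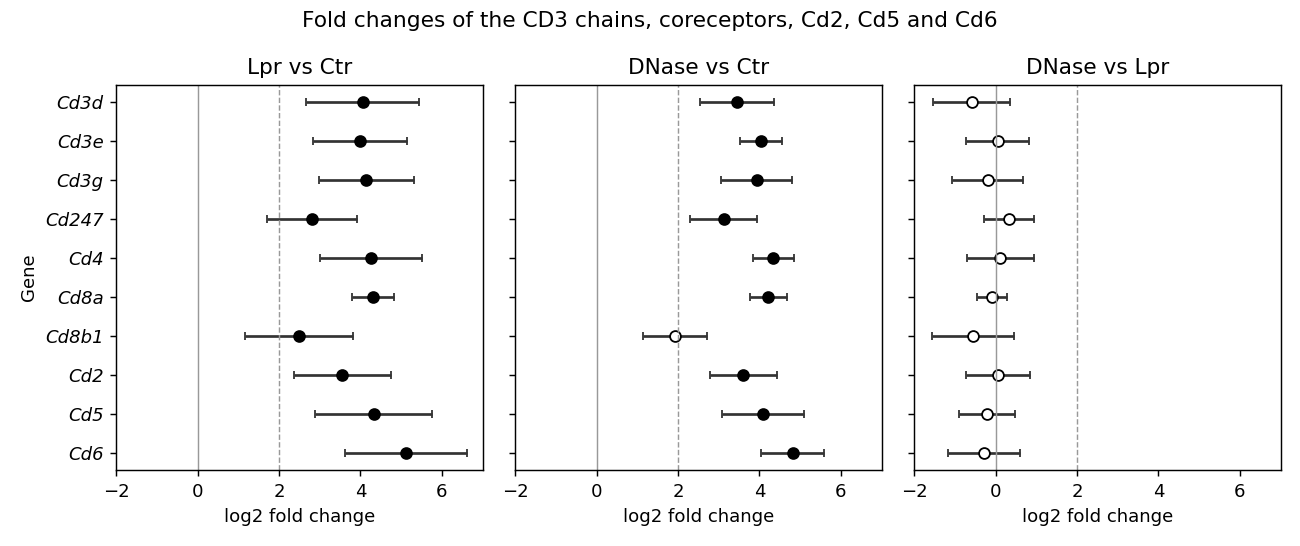
Log2 fold changes of the 10 genes in the 3 comparisons, with 95% confidence intervals from edgeR's quasi-likelihood fit; filled points passed the threshold and the dashed line marks a log2 fold change of 2. All 10 points are filled for Lpr against Ctr, 9 for DNase against Ctr, and none for DNase against Lpr, where every interval includes 0.

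Between DNase and Lpr none of the 10 genes was called, as for the other genes (0% of 15832 tested in the direction of higher in DNase). At an unadjusted p under 0.05, 0 of the 10 genes and 5.6% of all genes passed, in either direction. DESeq2 and limma also called 0 of the 10. No group of the 10 genes lay apart, while 2.13% of all genes were higher in every DNase library than in every Lpr library. Of the 10, 4 were higher and 6 lower in DNase, and the median log2 value was -0.14 (-0.02 for all genes). The value nearest to a change was Cd3d at -0.59 (95% confidence interval -1.53 to 0.35), and the narrowest interval was that of Cd8a, -0.46 to 0.29, so a halving of Cd8a lay outside it. The intervals of Cd4 (-0.72 to 0.93) and Cd8b1 (-1.57 to 0.45) were wider. The direction of Cd2, Cd3e, Cd3g, Cd4, Cd5 and Cd6 in this comparison turned when 1 library was left out.

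To set the coreceptors against the amount of CD3 RNA in the same library, each was divided by the CD3 sum, and Cd4 was divided by Cd8a. Reads of Cd4 and Cd8a from cells other than T cells count in these ratios. With 4 against 3 libraries an exact permutation test cannot go below p = 0.0571, and with the 8 MRL/lpr libraries against Ctr it cannot go below 0.0121. The ratio of Cd8b1 to CD3 was 0.231, 0.319 and 0.167 in Ctr, 0.0591, 0.0897, 0.0572 and 0.0841 in Lpr, and 0.0634, 0.0602, 0.0604 and 0.0562 in DNase. All 8 MRL/lpr libraries lay below all 3 Ctr libraries, by 1.82 on average on the log2 scale, which is 3.53-fold lower (p = 0.0121 by a two-sided exact permutation test, 0.0485 after adjustment over the 4 ratios). With the length trend removed the ratios were 0.164 to 0.315 in Ctr and 0.0563 to 0.0885 in MRL/lpr. The difference was -1.70 in Lpr and -1.94 in DNase alone, both at the smallest p of 0.0571 that the exact test allows. With 1 library left out the difference stayed between -2.06 and -1.59. The adjusted p rose to between 0.0667 and 0.178, where the smallest p no longer reaches the threshold over 4 ratios. The exception was without Lpr replicate 3 (0.0333), where Cd4 per CD3 shared the smallest p.

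In counts, Cd8b1 made up 16.7% to 27.3% of the reads on Cd8b1 and the 3 CD3 genes together in Ctr, from 11 to 23 Cd8b1 counts, and 6.48% to 9.87% in MRL/lpr, from 36 to 196 counts. The widest exact binomial 95% confidence interval in Ctr was 16.1% to 41.0% (replicate 2) and the lowest bound 8.62% (replicate 3), while the highest bound in MRL/lpr was 11.3% (Lpr replicate 4). These intervals cover counting error only.

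The ratio of Cd8a to CD3 showed no such separation. It was 0.238, 0.512 and 0.459 in Ctr, 0.772, 0.291, 0.435 and 0.512 in Lpr, and 0.683, 0.474, 0.477 and 0.354 in DNase. The groups overlapped, with the length trend removed as well (0.228 to 0.485 in Ctr, 0.274 to 0.741 in MRL/lpr), and the 8 MRL/lpr libraries differed from Ctr by 0.32 on the log2 scale (exact permutation test, p = 0.376, adjusted p = 0.63). The ratio of Cd8a to Cd8b1, looked at after these values were seen and given without a test, was 1.03 to 2.75 in Ctr, 3.24 to 13.1 in Lpr and 6.29 to 10.8 in DNase, with no overlap between Ctr and MRL/lpr. With the gene length trend removed it was 0.995 to 2.59 in Ctr and 3.10 to 12.6 in MRL/lpr.

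The ratio of Cd4 to CD3 was 0.236, 0.227 and 0.252 in Ctr, 0.508, 0.301, 0.0986 and 0.280 in Lpr, and 0.424, 0.376, 0.290 and 0.291 in DNase. All 4 DNase libraries lay above all 3 Ctr libraries, by 0.52 on the log2 scale (exact permutation test, p = 0.0571, the smallest possible, adjusted p = 0.114). The Lpr libraries overlapped with Ctr only through replicate 3, the library with the length trend, where the ratio was 0.159 after the trend was removed and still the lowest of all 11. Without Lpr replicate 3 the MRL/lpr libraries exceeded Ctr by 0.53 (exact permutation test, adjusted p = 0.0333), against 0.31 with all 8 (adjusted p = 0.63). Leaving out the only MRL/lpr library below Ctr separates the groups completely, so the exact p is then the smallest possible by construction. Its adjusted value also rests on Cd8b1 per CD3 sharing that smallest p. No conclusion is drawn from it. No ratio of Cd4 to CD3 in MRL/lpr was below the Ctr range apart from that library. The ratio of Cd4 to Cd8a overlapped in all comparisons, from 0.442 to 0.992 in Ctr, 0.227 to 1.03 in Lpr and 0.609 to 0.824 in DNase. Between DNase and Lpr all 4 ratios overlapped, with exact p from 0.371 to 0.914.

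**Figure D3:**
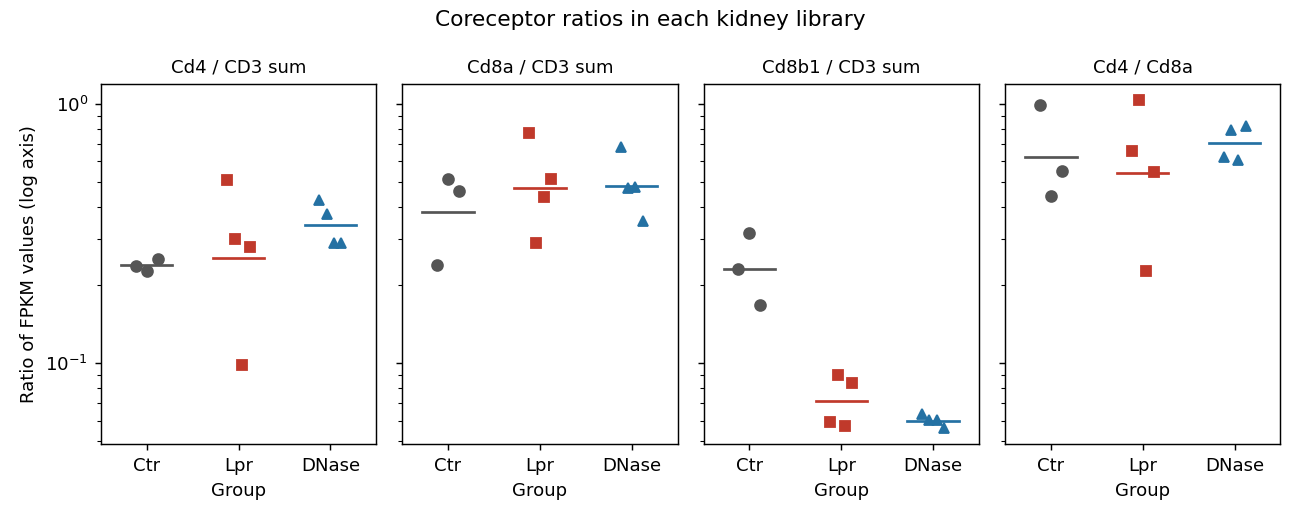
Ratios of FPKM (log axis) of Cd4, Cd8a and Cd8b1 to the sum of Cd3d, Cd3e and Cd3g, and of Cd4 to Cd8a, with a point per library and a bar at the geometric mean of each group. Cd8b1 per CD3 is lower in all 8 MRL/lpr libraries (0.0562 to 0.0897) than in the 3 Ctr libraries (0.167 to 0.319), and the other ratios overlap except Cd4 per CD3 between DNase and Ctr.

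Within the 8 MRL/lpr libraries Cd8b1 followed the CD3 sum from mouse to mouse. Pearson's r of the log2 values was 0.94 (exact permutation test, p = 0.00263, adjusted p = 0.0088 over the 7 genes set against CD3) and Spearman's rho 0.86 (exact p = 0.0107). Without the 2 libraries farthest from the median, Lpr replicates 1 and 2, r was 0.83. For Cd8a r was 0.68 (exact p = 0.060, adjusted p = 0.070) and rho 0.71 (exact p = 0.0576), with r of 0.56 without those 2. For Cd4 r was 0.35 (exact p = 0.411, adjusted p = 0.411), rho 0.52 (exact p = 0.197), and r -0.04 without those 2, or 0.70 over all 8 with the length trend removed. With that trend removed r over all 8 was 0.96 for Cd8b1 and 0.58 for Cd8a. For Cd6 r was 0.80, or 0.96 with the trend removed. These libraries pool Lpr and DNase, and the 4 libraries of each group are too few for a value of their own.

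**Figure D4:**
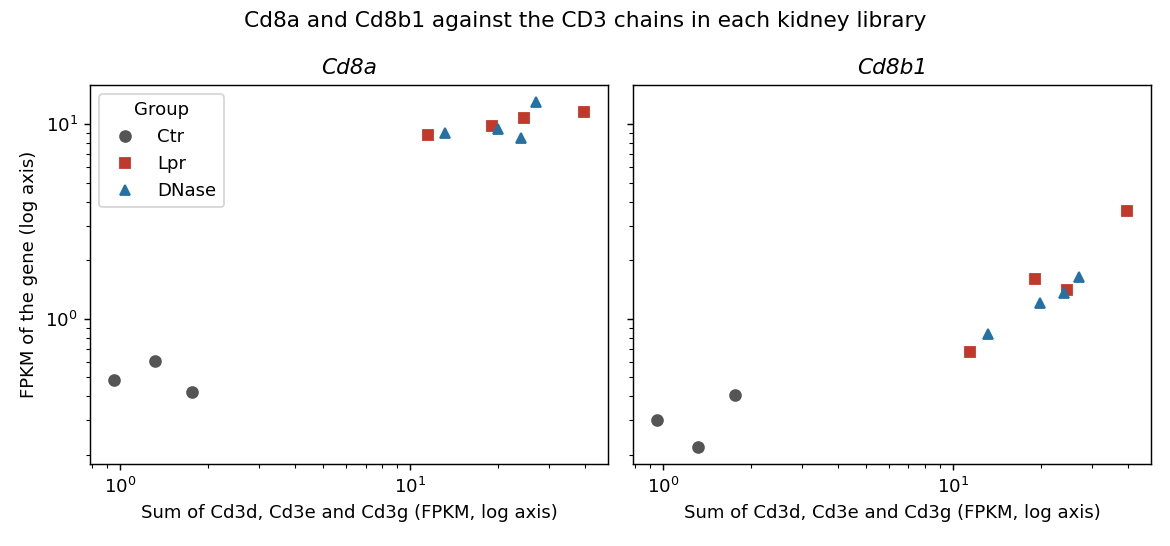
FPKM of Cd8a and Cd8b1 against the sum of Cd3d, Cd3e and Cd3g in each library (both axes log), with symbols for Ctr, Lpr and DNase. Over the 8 MRL/lpr libraries Cd8b1 runs from 0.677 to 3.56 FPKM and follows the CD3 sum, while Cd8a stays between 8.51 and 13.0 FPKM.

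The genes whose level followed the CD3 chains most closely over the 8 MRL/lpr libraries, out of 13981 compared, were Skap1 (r = 0.973, a T cell adaptor protein), Nfkbid (r = 0.973, an IkappaB-type regulator), Cyb5r3 (r = 0.972, a cytochrome b5 reductase), Nkg7 (r = 0.963, a granule protein of cytotoxic lymphocytes) and Acap1 (r = 0.963, a regulator of vesicle recycling). Likeness was measured as Pearson's r of log2 CPM with the mean log2 CPM of Cd3d, Cd3e and Cd3g, and is a description over 8 libraries. By the same measure r was 0.957 for Cd8b1, 0.930 for Cd5, 0.868 for Cd2, 0.821 for Cd6, 0.790 for Cd247, 0.685 for Cd8a and 0.315 for Cd4. Without Lpr replicate 2 these were 0.936 for Cd8b1, 0.920 for Cd5, 0.754 for Cd2, 0.660 for Cd6, 0.729 for Cd247, 0.653 for Cd8a and -0.16 for Cd4. The chains that form the mean themselves gave 0.979 (Cd3g), 0.876 (Cd3d) and 0.736 (Cd3e). Without Lpr replicate 2 they gave 0.973, 0.872 and 0.474, so the value of Cd3e lay below those of Cd8b1 and Cd5. Lpr replicate 3 was kept in all these values. There Cd3e made up 11.3% of the CD3 sum, against 21.0% to 30.2% in the other MRL/lpr libraries. Likeness without that library, or with the length trend removed, was not computed.

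Other genes of the pathway were counted from fixed lists. Of 18 tested genes of proximal receptor signalling, 12 were called higher in Lpr than in Ctr and 0 lower, and the median change was 3.20 on the log2 scale. Among them were Lck, the coreceptor-bound kinase (3.50), Zap70, the kinase that docks on phosphorylated CD3 and zeta (3.35), and the adaptors Lat (4.21) and Sh2d1a (4.27, the largest). Plcg1, a phospholipase that many cells express, had the smallest value, -0.23, and did not pass. Of 8 transcription factors of the T lineage 1 was called, Ikzf1 (2.60), and 3 passed the adjusted p, with a median of 0.89 and the smallest value in Gata3 (-0.40). Trat1 was too low for a test, and the constant genes of the T cell receptor were not analysed here.

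Of 10 tested genes linked to the CD4 or CD8 lineage, 8 were called higher in Lpr, and the median log2 change was 3.96. Gzmk, a granzyme of cytotoxic and memory T cells, changed the most (5.41, adjusted p = 0.00241). Eomes, a factor of effector CD8 T cells (4.26), and Runx3, the factor of the CD8 lineage (2.87, adjusted p = 0.0476), were also called. Zbtb7b, the factor of the CD4 lineage, was abundant in Ctr (15.8 to 17.6 FPKM) and gave -0.08, with overlapping groups. Foxp3, the factor of regulatory T cells, was called from 1 to 3 counts in Ctr and 17 to 55 in Lpr, and stood at 40 to 81 in DNase. Cd40lg, a helper molecule of activated CD4 T cells, had 1 to 3 counts in Ctr, 5 to 10 in Lpr and 13 to 26 in DNase. DNase and Lpr did not overlap, but the log2 difference of 1.30 missed the threshold (edgeR adjusted p = 0.82), as did that of Foxp3 at 1.08 (edgeR adjusted p = 0.85). Both were singled out after their values were seen.

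Of 11 binding partners of the 10 genes, 8 were called higher in Lpr, and the median log2 change of all 11 was 2.53. The called genes included Cd48, the ligand of CD2 (3.02), and Cd72, described as a ligand of CD5 (2.62). Also called were the class II genes H2-Aa (2.85), H2-Ab1 (2.04) and H2-Eb1 (2.53), which CD4 binds. Of class I, the heavy chain H2-K1 (2.31) and the light chain B2m (3.00) were called. The partners of CD6 gave -0.07 (Alcam) and -0.22 (Cdcp1) and did not pass. Nor did H2-D1, the other heavy chain of class I in the list, at 0.60 with overlapping groups (edgeR adjusted p = 0.135). Between DNase and Lpr 10 of the 11 were lower in DNase, against 52.9% of all genes tested. Of them 5 were lower at an unadjusted p under 0.05, against 3.43% of all genes, and none after adjustment. Those 5 were H2-Aa, H2-Ab1, H2-K1, H2-D1 and B2m, all genes of MHC molecules. The partners other than MHC genes lay between -0.23 (Lck) and 0.05 (Alcam) on the log2 scale. B2m stood at 2685 to 4089 FPKM in Lpr and 2192 to 2500 in DNase, and H2-K1 at 486.3 to 872.5 and 388 to 446, without overlap in either (adjusted p = 0.82 for both), which held in this direction for 1.66% of all genes.

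Among markers of other cells that can carry these genes, some were higher in Lpr than in Ctr and others were not. Of 10 dendritic cell markers, 3 were called higher in Lpr, among them Xcr1 (3.12), and Clec9a gave 1.83 (edgeR adjusted p = 0.0206). Both mark a class of dendritic cells, only some of which carry CD8 alpha chains. Whether those in these kidneys carry them was not tested. Xcr1 stood at 0.0470 to 0.185 FPKM in Ctr, 0.542 to 1.55 in Lpr and 1.15 to 1.96 in DNase. The summed level of the 10 was 25.6 to 34.8 FPKM in Ctr, 122 to 247 in Lpr and 113 to 156 in DNase. Bst2, which interferon induces in many cells, made up 83.7% or more of that sum in every library, and the other 9 summed to 3.74 to 5.20 FPKM in Ctr, 9.84 to 17.4 in Lpr and 9.87 to 19.0 in DNase. No marker was at 0 throughout a group. Cd209a had the smallest value (-1.76), and Zbtb46 (-0.07) and Siglech (0.69) overlapped between Lpr and Ctr. Of 6 tested markers of NK and innate lymphocytes 2 were called, Il7r (3.80) and Klrk1 (3.33), both of which T cells also express. Klrb1c gave -0.13 with overlapping groups, and Klrd1 gave 1.87 without passing (edgeR adjusted p = 0.111). The sum of 7 of the markers was 0.553 to 1.43 FPKM in Ctr, 2.75 to 6.64 in Lpr and 2.25 to 4.74 in DNase. The part of these cells in the levels and ratios of Cd4 and Cd8a was not tested.

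Some markers of other immune cells were also called higher in Lpr, while others were not. Of 10 macrophage and monocyte markers 8 were called, led by Ly6c2 (4.22) and with Csf1r the smallest (0.89), and their sum was 67.0 to 89.0 FPKM in Ctr, 401 to 832 in Lpr and 320 to 623 in DNase. Of 8 tested B and plasma cell markers 3 were called, led by Jchain (5.12) and with Cr2 the smallest (-1.25), with sums of 10.0 to 22.6, 79.4 to 365 and 151 to 516 FPKM. Without Jchain these sums were 6.71 to 12.2, 12.3 to 26.1 and 18.6 to 31.5 FPKM. Of 5 tested neutrophil markers 3 were called, led by Csf3r (3.97) and with Retnlg the smallest (1.56), with sums of 2.61 to 8.10, 16.7 to 48.8 and 13.5 to 33.3 FPKM. Ly6g, the defining neutrophil marker, had at most 3 counts in any library. Of 5 tested genes of lymph nodes and lymphoid stroma 3 were called, led by Cxcl13 (5.00) and with Cr2 again the smallest, with sums of 13.7 to 19.8, 40.3 to 80.8 and 43.8 to 76.3 FPKM. Glycam1 and Chst4, which mark lymph node vessels, had at most 4 counts in any library. Madcam1, of the same list, went the other way, with 0 to 2 counts in Ctr, 3 to 49 in Lpr and 7 to 18 in DNase. It was too low for a test between Lpr and Ctr, and was called higher in DNase than in Ctr (3.13, edgeR adjusted p = 0.0118). None of 9 kidney markers was called; their values ran from -0.97 (Slc12a3) to 0.32 (Aqp2) and their sums from 18591 to 22410 FPKM in Ctr, 4366 to 31380 in Lpr and 8917 to 12744 in DNase. Kap, an androgen-regulated gene of the proximal tubule, made most of the spread, from 1413 to 28465 FPKM in Lpr, and the other 8 kidney markers summed to 4047 to 4304 FPKM in Ctr, 2915 to 3780 in Lpr and 3362 to 4836 in DNase. The part of these cells in the levels of the 10 genes was not tested.

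**Figure D5:**
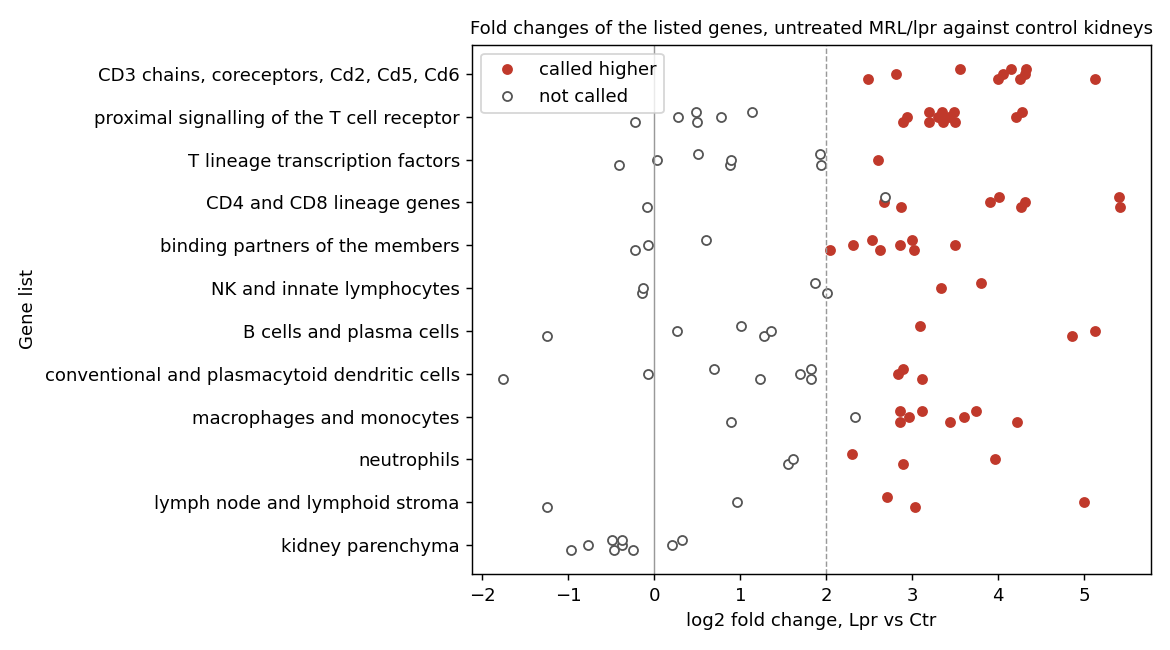
Log2 fold changes from Ctr to Lpr of the tested genes of each list, with a point per gene, filled where the gene passed the threshold; the solid line marks 0 and the dashed line a log2 fold change of 2. The 10 T cell genes at the top lie between 2.49 and 5.12, and the 9 kidney genes at the bottom between -0.97 and 0.32.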

How the data were processed

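Kidney RNA of 11 mice in 3 groups was sequenced as 100 bp paired-end reads from total RNA, with each mouse in its own library. The authors deposited counts of reads per gene as unnormalized whole numbers; the labels name fastp, HTSeq, DESeq2, R 3.2.0 and mm10, the study's methods credit the alignment to HTSeq, and the annotation is not given in the sources used here. The authors also deposited FPKM, made from those counts with the library total and a gene length that was recovered from the 2 tables. Libraries held 33469858 to 38460873 counts, and 0 columns were unused.

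Groups were compared in pairs with edgeR 4.0.16 (R 4.3.3): filterByExpr, TMM, the quasi-likelihood test and Benjamini-Hochberg adjustment over all genes tested. A call required an adjusted p under 0.05 together with a log2 fold change beyond 2 in size, as in the study's methods, which used DESeq2. Confidence intervals are 95%. Ratios of FPKM were compared on the log2 scale by exact permutation tests, two-sided (scipy 1.17.1), adjusted over the 4 ratios of a comparison. To remove the length trend, the slope of each library's deviations in log2(FPKM + 0.1) on log2 gene length, over genes averaging 1 FPKM or more, was subtracted. Likeness to CD3 was computed over genes averaging 1 CPM or more, with a prior count of 2. Promoters were matched by symbol; positions are from GENCODE vM21.

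The 10 genes, the lists and the tests were chosen with earlier results of these data known. Named are all 10 genes, the largest and smallest fold change of each list between Lpr and Ctr, lineage genes the text turns on and the 5 genes most like CD3; other named genes were chosen after their values were seen. Of these, 1 gene that the rule names is not reported here. Marker sums without their most abundant gene, and ratios of Cd247, Cd2, Cd5 and Cd6 and level orders with the length trend removed, were added after the data were seen. Alternatives used DESeq2 1.42.0, limma 3.58.1 on the log2 of FPKM plus 1 or plus 0.1 (genes averaging 0.5 FPKM or more), other scaling, filters, denominators, 1 fit over 3 groups, a replicate block and each library left out. The test was checked on simulated data: of 200 genes with a log2 fold change of 3, 197 were recovered for Lpr and Ctr (16074 genes), with 5 false calls.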

Additional observations from a re-analysis of the deposited data

Results flagged for a closer look

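Cd2 stood at 12.4 FPKM in Lpr replicate 2 and at 4.19 to 5.22 in the other 3 Lpr libraries, a gap of 0.875 of the group's range, above the critical value of Dixon's test for 4 samples. It was 1 of 28 groups of 4 libraries examined (the levels of the 10 genes and the 4 ratios in Lpr and DNase), and chance alone flags about 1 in 20. The same library was also the highest of its group for Cd3e, Cd3g, Cd247, Cd4, Cd8a, Cd8b1, Cd5 and Cd6.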

How the results depend on the processing

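The 10 genes called higher in Lpr than in Ctr were 9 to 10 when 1 library was left out and 10 under DESeq2, its size factors in edgeR, no filter, no fold limit, 1 fit over 3 groups and limma on log2(FPKM + 0.1). Limma on log2(FPKM + 1), a scale that compresses low levels by construction, called 6 in Lpr and 5 in DNase against Ctr. Between DNase and Lpr every alternative called 0. The replicate numbers do not pair the mice (correlations of deviations from -0.28 to 0.16); with the replicate block 9 genes were called in Lpr against Ctr, the log2 fold change of Cd8b1 being 2.31 (adjusted p = 0.068), 9 in DNase against Ctr and 0 between DNase and Lpr.

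The lower Cd8b1 per CD3 in MRL/lpr kept its direction with every denominator, with counts, with 0.5 counts added and with the length trend removed, and ran from -2.06 to -1.59 with 1 library left out. The other ratios turned direction in places. Cd8a per CD3 between DNase and Lpr was -0.29 with Cd3e alone and -0.10 with the length trend removed. With 1 library left out, the log2 differences of Cd8a per CD3 ran from -0.036 to 0.54 (Lpr against Ctr), -0.0044 to 0.55 (DNase against Ctr), -0.020 to 0.53 (MRL/lpr against Ctr) and -0.20 to 0.27 (DNase against Lpr). Those of Cd4 per Cd8a ran from -0.52 to 0.21, -0.068 to 0.52, -0.26 to 0.32 and -0.029 to 0.70, in the same order. Those of Cd4 per CD3 ran from -0.23 to 0.56 (Lpr against Ctr), 0.20 to 0.53 (MRL/lpr against Ctr) and -0.038 to 0.75 (DNase against Lpr). The cause was not tested.

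For single genes between DNase and Lpr, the log2 fold changes that turned with 1 library left out ran from -0.43 to 0.14 for Cd3g, -0.38 to 0.15 for Cd5, -0.49 to 0.29 for Cd6, -0.16 to 0.57 for Cd4, -0.14 to 0.50 for Cd2 and -0.12 to 0.54 for Cd3e. Depth limits the Ctr values most, at 2 to 64 counts per gene.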
